A study of Mus musculus with 8 samples.

Results

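Solute carriers are membrane proteins that move amino acids, sugars, nucleosides, metals, organic acids and inorganic ions across the plasma membrane or into organelles, and their gene symbols begin with Slc in mouse. Some move a substrate down its gradient and others couple it to sodium, protons or an exchanged ion. Red cell precursors depend on them to supply glycine, iron and cofactors for heme synthesis, amino acids for globin and bicarbonate exchange for gas transport. KLF1 is the zinc finger factor that activates much of the erythroid program from GC-rich sites, and the E339K substitution in mouse KLF1 is the counterpart of the human change that causes congenital dyserythropoietic anemia type IV.

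The Slc genes described here were taken by symbol from the gene tables: every gene whose symbol starts with Slc and a digit, without Slc4a1, Slc25a37, Slc25a38, Slc11a2 and Slc40a1, the red cell anion exchanger and carriers of iron and glycine. The rule gave 194 of the 11364 genes, and all 194 were found again in the other gene table by Entrez identifier, length and mean expression. Binding sites were added where the closest transcription start site (TSS) belonged to such a gene, which gave 114 of the 5551 sites at 74 genes. Of these 74 genes, 59 were among the 194 and 15 were not in the gene tables, so 209 Slc genes were described in all and 135 of the 194 had no site. The rule works on names alone, and it also took in genes that encode no carrier, such as Slc9a3r1 and Slc9a3r2, scaffold proteins that hold sodium-proton exchangers at the membrane, and the pseudogenes Slc2a4rg-ps and Slc22a13b-ps.

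K1 cells are an erythroid line from the fetal liver of Klf1-/- mice. K1-E339K-ER cells, given as K1-CDA-ER in the labels, are K1 cells that carry mouse KLF1-E339K fused to an estrogen receptor domain in an MSCV-IRES-GFP retrovirus, and 4-hydroxytamoxifen (4-OHT) moves the fusion protein into the nucleus. KLF1-ER is the wild type fusion in the same cells, from earlier work of the same group and with no library in the labels. The labels give 8 libraries: 1 ChIP library and 1 input library from K1-E339K-ER clone 2A after 3 h in 200 nM 4-OHT, and nascent RNA libraries from 3 K1 and 3 K1-E339K-ER cultures labelled for 30 min with 500 µM 4-thiouridine (4sU). All 3 K1-E339K-ER RNA libraries, from clones 1B, 2A and 2B, and 2 of the K1 libraries were made with 200 nM 4-OHT, while the K1 library of replicate 3 was made with ethanol. All groups were therefore Klf1-/-, and the fusion was expressed from a viral promoter in selected clones.

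The tables give 1 mean concentration per protein at each site, which is the log2 of the mean normalized ChIP read count as the authors deposited it, and 1 mean expression per gene, the same in both gene tables. Which libraries that mean takes in is not stated, and it may include K1-ER libraries that the labels do not list. No value per library was at hand, so no spread between replicates and no test could be had, and the depth of the libraries is unknown. Differences between the KLF1-ER and KLF1-E339K-ER concentrations are therefore descriptions of 2 deposited values. The labels hold 1 KLF1-E339K-ER ChIP library, and the KLF1-ER values come from earlier work. A difference between the proteins thus cannot be told apart from a difference between experiments. Concentrations were called different from 2-fold upward. The main counts for the Slc genes are set beside the same shares over all sites or genes. As a check of the cell type, all 10 erythroid marker genes sought were listed in the gene tables, from Gata1 at the 99.2 percentile of all genes by level per kb to Nfe2 at 78.4, Slc4a1 at 59.4 and Alas2 at 48.8. Klf1 stood at the 97.1 percentile in this mean over libraries, which cannot be split by group and so checks no label. None of the 3 lymphoid and none of the 3 hepatocyte markers was listed, and of the 5 myeloid and megakaryocyte markers Mpo and Itga2b were, at the 18.4 and 57.2 percentiles. Of the 2 fibroblast markers only Col1a1 was listed, at the 2.61 percentile.

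The sequences below come from the centres of the most strongly occupied Slc sites and show the letters that the occupancy is set against later. Each is 50 bases of the mouse NCBIM37 (mm9) sequence, 5′ to 3′. Capitals mark a match to a G-rich motif with a purine (GGGAGTGG, GGGAGGGG, GGGGGTGG or GGGGGGGG) or with a pyrimidine (GGGCGTGG, GGGCGGGG, GGGTGTGG or GGGTGGGG) after the opening GGG. In each sequence 1 match is marked, and further matches, as in the farthest Slc6a9 site, stand in lower case. Sequences without capitals had no match within 50 bp of the site midpoint. The 3 sites with the highest KLF1-E339K-ER concentration among those at least 2-fold higher for KLF1-E339K-ER lay at Slc9a3r2, with 2 sites, and at Slc6a9, the plasma membrane glycine transporter.
Slc9a3r2, 418 bp downstream of the TSS, chr17:24781459-24781508, plus strand: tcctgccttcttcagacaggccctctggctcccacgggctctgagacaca
Slc6a9, 160 bp upstream of the TSS, chr4:117507666-117507715, minus strand: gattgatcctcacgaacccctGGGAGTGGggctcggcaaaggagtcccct
Slc9a3r2, 599 bp upstream of the TSS, chr17:24782475-24782524, minus strand: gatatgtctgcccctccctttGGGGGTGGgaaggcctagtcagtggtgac

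The 3 sites with the highest KLF1-ER concentration among those at least 2-fold higher for KLF1-ER lay at the start sites of Slc9b2, a sodium-proton exchanger, Slc4a11, a transporter of the bicarbonate transporter family, and Slc6a3, the dopamine transporter. All 3 held a pyrimidine match, and the Slc4a11 site held GGGCGTGG.
Slc9b2, 13.5 bp upstream of the TSS, chr3:134970583-134970632, minus strand: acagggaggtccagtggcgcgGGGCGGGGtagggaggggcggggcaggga
Slc4a11, 125 bp upstream of the TSS, chr2:130523325-130523374, minus strand: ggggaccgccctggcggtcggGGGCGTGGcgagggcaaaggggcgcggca
Slc6a3, 42 bp upstream of the TSS, chr13:73674165-73674214, plus strand: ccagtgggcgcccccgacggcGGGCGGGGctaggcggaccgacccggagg

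The 3 most occupied sites with less than a 2-fold difference lay at Slc30a10, a manganese exporter, Slc2a5, the fructose transporter, and Slc16a3, a lactate exporter. The Slc2a5 and Slc16a3 sites held a pyrimidine match.
Slc30a10, 6 bp downstream of the TSS, chr1:187278708-187278757, plus strand: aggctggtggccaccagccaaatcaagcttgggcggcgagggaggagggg
Slc2a5, 13498 bp downstream of the TSS, chr4:149506917-149506966, plus strand: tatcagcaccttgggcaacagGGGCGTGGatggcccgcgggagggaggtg
Slc16a3, 1973 bp downstream of the TSS, chr11:120812362-120812411, minus strand: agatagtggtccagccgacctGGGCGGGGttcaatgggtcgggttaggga

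Slc6a9 had 4 sites, and the other 3 are shown because the gene's sites alternated in preference along the locus. These 3 were added after their values had been seen.
Slc6a9, 3041.5 bp upstream of the TSS, chr4:117504796-117504845, plus strand: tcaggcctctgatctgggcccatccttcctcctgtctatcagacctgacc
Slc6a9, 4851.5 bp upstream of the TSS, chr4:117502962-117503011, minus strand: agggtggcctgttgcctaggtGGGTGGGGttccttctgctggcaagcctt
Slc6a9, 28040.5 bp upstream of the TSS, chr4:117479794-117479843, minus strand: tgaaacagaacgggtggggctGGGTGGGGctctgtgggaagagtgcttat

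The first question was how KLF1-ER and KLF1-E339K-ER occupancy compared at the Slc sites. KLF1-E339K-ER was at least 2-fold higher at 63 of the 114 sites (55.3%), where the share over all sites was 61.5%. KLF1-ER was at least 2-fold higher at 40 (35.1%), beside 28.7% of all sites, and 11 (9.65%) lay within 2-fold, beside 9.84%. The 95% Wilson interval of the first share, which covers the number of sites only, ran from 46.1 to 64.1% and that of the second from 26.9 to 44.2%. Both intervals held the share over all sites, so the split at Slc genes was near the background.

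The mutant-higher Slc sites had a median KLF1-ER concentration of 0.91 and a median KLF1-E339K-ER concentration of 5.22, and the wild-type-higher sites had medians of 5.13 and 1.86. In 25 of the 63 mutant-higher sites (39.7%) KLF1-ER was at the lowest concentration the table lists, -0.09, beside 41.7% of all mutant-higher sites. In 7 of the 40 wild-type-higher sites (17.5%) KLF1-E339K-ER was at its lowest listed value, -0.38, beside 9.18% of all such sites. A fold against these lowest values is a lower bound. The lower of both concentrations was below 1 at 50 of the 114 Slc sites (43.9%), beside 41.7% of all sites.

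**Figure D1:**
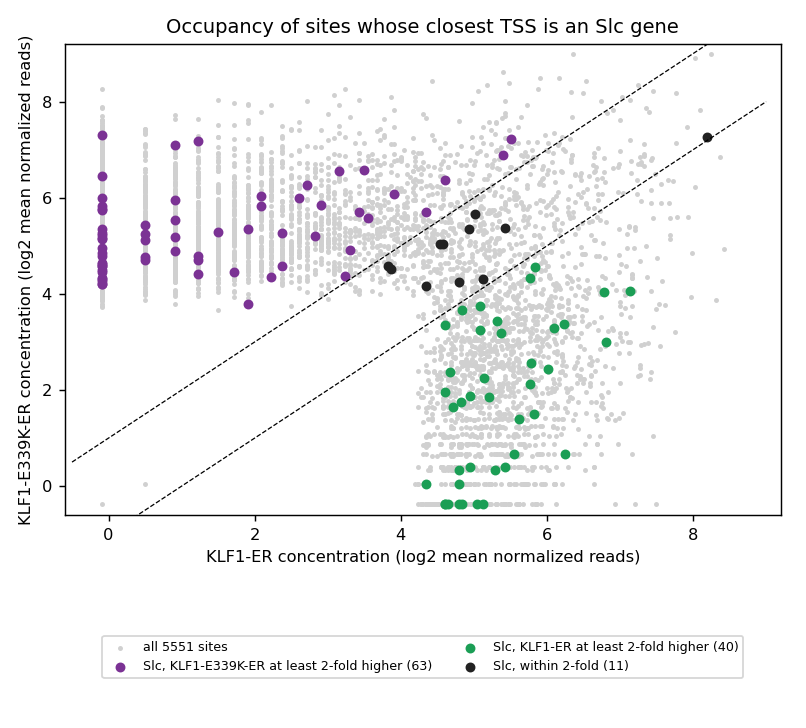
KLF1-ER concentration (x axis) and KLF1-E339K-ER concentration (y axis) at each site, both as log2 of mean normalized reads and both the authors' means. Grey points are all 5551 sites, coloured points are the 114 Slc sites and dashed lines mark a 2-fold difference; 63 Slc sites lie above the upper line, 40 below the lower line and 11 between them, Slc30a10 being the black point farthest to the right.

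The Slc site with the highest KLF1-E339K-ER concentration was in an intron of Slc9a3r2 (chr17, first of the sequences above), at 7.30 for KLF1-E339K-ER and at the lowest listed value for KLF1-ER, at least 168-fold higher for the mutant. The site 599 bp upstream of the same TSS had concentrations of 1.23 for KLF1-ER and 7.19 for KLF1-E339K-ER, a 62.2-fold difference. The site at Slc23a3, an orphan member of the ascorbate transporter family, lay 2726 bp upstream in a coding exon of the neighbouring gene 1810031K17Rik and had 0.91 and 7.10. At Slc2a8, a glucose transporter of intracellular membranes, the site 373 bp downstream of the TSS had 6.45 for KLF1-E339K-ER and was at least 93.1-fold higher for it. KLF1-ER was at 1.23 or below in all 4 of these sites.

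At the other mutant-higher sites of this rank KLF1-ER stood at 3.16 or above. Only the Slc6a9 sites among them exceeded 4.34, the lowest KLF1-ER concentration of the wild-type-higher Slc sites. The Slc6a9 site 160 bp upstream of the TSS had 5.51 for KLF1-ER and 7.22 for KLF1-E339K-ER, a 3.27-fold difference, and the site 4851.5 bp upstream had 5.40 and 6.89. The site 174.5 bp upstream of Slc16a1, the monocarboxylate transporter for lactate and pyruvate, had 3.50 and 6.58, an 8.46-fold difference. The site 9961 bp upstream of Slc46a1, the proton-coupled folate transporter, had 3.16 and 6.56.

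Among the wild-type-higher sites, Slc9b2 came first with 7.13 for KLF1-ER and 4.06 for KLF1-E339K-ER, an 8.40-fold difference. Slc4a11 had 6.81 and 2.99, a 14.1-fold difference, and Slc6a3 had 6.78 and 4.04, a 6.68-fold difference. The Slc6a9 site 3041.5 bp upstream of the TSS had 6.24 and 0.66, a 47.8-fold difference. The site 101.5 bp upstream of Slc41a3, a magnesium transporter, had 6.01 and 2.43.

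The remaining named sites of this class lay at Slc25a35, a mitochondrial carrier, with 6.23 and 3.37, at Slc43a1, a transporter of branched-chain amino acids, with 6.10 and 3.28, and at Slc44a2, a choline transporter-like protein, with 5.83 and 4.55. Of the 8 named wild-type-higher sites, KLF1-E339K-ER was below 1 at the Slc6a9 site only, and the smallest difference was 2.43-fold at Slc44a2.

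Of the 11 sites within 2-fold, the one at the Slc30a10 TSS had by far the highest concentrations, 8.19 for KLF1-ER and 7.27 for KLF1-E339K-ER. Its 1.89-fold difference lies just inside the limit, and 8.19 was the highest KLF1-ER concentration of all 114 sites. The Slc2a5 site had 5.42 and 5.37, the Slc16a3 site 5.02 and 5.66, and the site 6800.5 bp downstream of the TSS of Slc17a9, the vesicular nucleotide transporter, 4.93 and 5.36. The site 9095.5 bp downstream of the TSS of Slc7a5, the light-chain partner of Slc3a2 in large neutral amino acid uptake, had 4.58 and 5.03.

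Slc sites lay mostly within 10 kb of a start site, as did sites in general. Of the 114, 49 (43.0%) lay within 1 kb of the closest TSS, beside 39.5% of all sites, and 81 (71.1%) within 10 kb, beside 67.6%. The wild-type-higher Slc sites had a median distance of 872.0 bp, beside 2759.5 bp for all wild-type-higher sites, and 20 of the 40 lay within 1 kb, beside 42.6%. The mutant-higher Slc sites had a median distance of 2471.0 bp, beside 3322.0 bp, and 27 of the 63 (42.9%) lay within 1 kb, beside 36.9%. By GENCODE release M1, the midpoint of 53 sites (46.5%) was intergenic, beside 36.6% of all sites, of 32 (28.1%) in an intron, beside 47.2%, of 24 (21.1%) in a noncoding exon, beside 12.8%, and of 5 (4.39%) in a coding exon, beside 3.4%. The midpoint was inside the named gene itself for 50 sites (43.9%), beside 47.6% of all sites. Site widths ran from 303 to 779 bp and the median GC content around the midpoint was 62.4%, beside 63.4% for all sites.

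Sites were spread thinly over the genes. Of the 74 genes with a site, 48 had 1, 15 had 2, 8 had 3 and 3 had 4, so that 48 (64.9%) had a lone site, beside 69.9% of all 3670 genes that were the closest TSS of a site. In 32 genes (43.2%) every site was mutant-higher, in 22 (29.7%) every site was wild-type-higher and in 6 (8.11%) every site was within 2-fold, beside 52.6, 25.1 and 6.51% of all such genes. At least 1 site of each preference was found in 12 genes (16.2%), beside 10.6%, and among genes with 2 or more sites in 12 of 26 (46.2%), beside 389 of 1103 (35.3%). The remaining genes were Slc16a3, with mutant-higher sites beside a site within 2-fold, and Slc41a3, with a wild-type-higher site beside such a site. Sites of 1 gene share a TSS and are not independent of each other. A site can also lie within another gene, as do the mutant-higher sites of Slc45a1, Slc24a6 and Slc16a6.

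Slc6a9 carried sites of both preferences. From far to near, its sites 28040.5, 4851.5, 3041.5 and 160 bp upstream of the TSS had KLF1-ER concentrations of 4.61, 5.40, 6.24 and 5.51. The KLF1-E339K-ER concentrations of the same sites were -0.38, 6.89, 0.66 and 7.22. The preference thus alternated along the locus, and the midpoint of the wild-type-higher site at 3041.5 bp lay 1810.0 bp from a mutant-higher site on its far side and 2881.5 bp from the other at the TSS. Glycine carried by Slc6a9 is a substrate of the first step of heme synthesis.

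Slc9a3r2 differed from Slc6a9 in that its 4 sites were all mutant-higher. Beside the pair described above, the site 1114 bp upstream had 0.91 for KLF1-ER and 5.19 for KLF1-E339K-ER, and the site 2429.5 bp downstream had -0.09 and 4.95. Slc16a10, a transporter of aromatic amino acids, had a wild-type-higher site 71 bp upstream of the TSS with 4.67 and 2.37. Its other sites, 2752, 8873 and 9530.5 bp upstream, had KLF1-ER concentrations of 2.37, -0.09 and -0.09 and KLF1-E339K-ER concentrations of 4.59, 4.78 and 4.58.

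Of the 8 genes with 3 sites, Slc2a1, a widely expressed glucose transporter, had mutant-higher sites only. They lay 2970.5, 3716 and 57654 bp upstream, with KLF1-ER concentrations of 4.34, 2.08 and 2.72 and KLF1-E339K-ER concentrations of 5.71, 6.03 and 6.26. Slc28a3, a concentrative nucleoside transporter not in the gene tables, had wild-type-higher sites only, all over 10 kb from its TSS, with 4.61, 5.55 and 4.84 for KLF1-ER and -0.38, 0.66 and 3.67 for KLF1-E339K-ER. Slc16a3 had the site shared by both proteins and mutant-higher sites 9863.5 and 10608.5 bp downstream, at -0.09 and 4.20 and at 0.91 and 4.89.

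The other genes with 3 sites held both preferences. Slc1a3, a glutamate and aspartate transporter, had 0.91 and 5.95 at 257.5 bp downstream of the TSS, -0.09 and 5.14 at 51182.5 bp upstream, and 4.64 and -0.38 at 11422 bp downstream. Slc29a1, an equilibrative nucleoside transporter, had all 3 sites close to a listed TSS and with modest differences: 3.86 and 4.51, 4.61 and 3.35, and 3.30 and 4.91. Slc28a1, a concentrative nucleoside transporter, had 4.82 and 1.76 at 10141 bp downstream and KLF1-ER at -0.09 at both of its other sites, where KLF1-E339K-ER was 4.26 and 4.32. Slc45a1, a sugar transporter family member, had 4.79 and 4.24 near its TSS, -0.09 and 4.86 at 48442 bp and 4.79 and -0.38 at 98806 bp downstream. The midpoints of both distant Slc45a1 sites lay in introns of another gene, Rere. Beside its mutant-higher site at the TSS, Slc16a1 had a site with 5.12 and 4.32 at 33116.5 bp and a wild-type-higher site with 5.21 and 1.85 at 35154 bp downstream.

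Sites of opposite preference could lie close together. At Slc16a6, a monocarboxylate transporter family member, the site 141 bp upstream had 2.61 for KLF1-ER and 6.0 for KLF1-E339K-ER. Its midpoint lay in an intron of another gene, Arsg. The Slc16a6 site 180.5 bp downstream had 5.32 and 3.43, and the midpoints of both sites were 688.5 bp apart. At Slc12a4, a potassium-chloride cotransporter of red cells, the sites 102.5 and 1011 bp upstream had 4.61 and 6.36, and 5.14 and 2.24, and lay 908.5 bp apart. At Slc4a2, an anion exchanger, the sites 196.5 bp downstream and 433 bp upstream had 2.91 and 5.85, and 5.08 and 3.74, and lay 1659.5 bp apart, where the listed distances are each to the closest of several start sites. At Slc43a1 the site 48 bp upstream had 3.91 and 6.08 beside the wild-type-higher site named above, 2783.5 bp away. Slc24a6, the mitochondrial sodium-calcium exchanger, had 5.62 and 1.39 at 59 bp upstream and -0.09 and 4.34 at 24571 bp downstream. The midpoint of the downstream Slc24a6 site lay in a noncoding exon of another gene, Tpcn1.

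**Figure D2:**
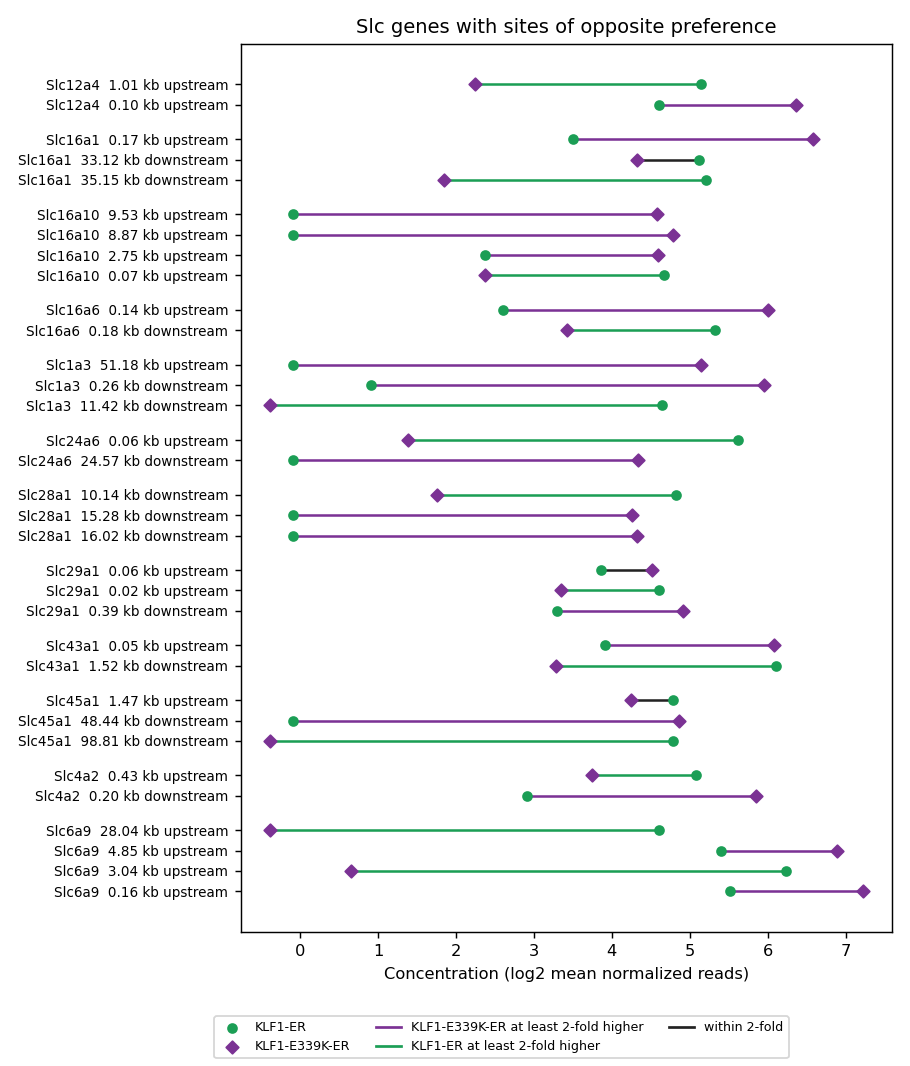
Concentration (x axis, log2 of mean normalized reads) of KLF1-ER (circles) and KLF1-E339K-ER (diamonds) at each site of the 12 Slc genes that had sites of opposite preference; each row is a site with its distance from the closest TSS in kb, and the line colour gives the preference. Along Slc6a9 the preference alternates from site to site, with KLF1-E339K-ER at -0.38, 6.89, 0.66 and 7.22 from the farthest to the nearest site. The distant sites of Slc45a1 and Slc24a6 lie within other genes, Rere and Tpcn1, and the upstream site of Slc16a6 lies within Arsg.

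The amino acid class held the most sites. By family number alone, the Slc genes fell into 12 transport classes. The 15 genes of the amino acid families with a site held 25 sites, of which 12 were mutant-higher, 11 wild-type-higher and 2 within 2-fold. Slc6a3, the dopamine transporter, counts in this class, and so does Slc7a6os, by its symbol alone, with a site within 2-fold. Slc16a10, a transporter of aromatic amino acids, counts with the monocarboxylate transporters. Over all sites, 61.5% were mutant-higher and 28.7% wild-type-higher, and the mutant-higher share of the amino acid class was 48%. Within the class, the heavy chain gene Slc3a2 had wild-type-higher sites only, with 4.34 for KLF1-ER and 0.05 for KLF1-E339K-ER at 3 bp from the TSS and 5.37 and 3.18 at 18433.5 bp downstream. Slc1a5, a glutamine transporter, had wild-type-higher sites at 124.5 bp upstream, with 5.43 and 0.39, and at 2300.5 bp downstream, with 5.78 and 2.57. Slc38a2 and Slc38a5, sodium-coupled neutral amino acid transporters, each had a mutant-higher site within 1 kb, with 2.08 and 5.82 and with -0.09 and 5.76. These examples were chosen after their values were seen.

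Nucleoside and nucleotide sugar transporters had 3 mutant-higher sites of 12 (25%), beside 61.5% over all sites, and 8 wild-type-higher ones. Of the wild-type-higher sites, 3 were those of Slc28a3. The class goes by family number, and its sites lay at Slc28a1, Slc28a3, Slc29a1, Slc35e4, Slc35g1 and Slc35g2 only. The split is therefore not one of nucleotide sugar transporters in general. Mitochondrial carriers had 7 mutant-higher sites of 9 (77.8%) and 2 wild-type-higher ones. The mitochondrial sites included Slc25a22, a glutamate carrier, at -0.09 for KLF1-ER and 5.99 for KLF1-E339K-ER, and both adenine nucleotide carriers, with 3.55 and 5.58 at 199.5 bp upstream of Slc25a4 and 4.95 and 1.87 at 12196.5 bp downstream of Slc25a5. Ion exchangers and cotransporters had 9 (52.9%) and 8 of 17, with all 4 sites of the scaffold gene Slc9a3r2 among the 9. Zinc and manganese transporters had 6 (66.7%) and 2 of 9, sugar transporters and monocarboxylate transporters each 7 (58.3%) and 3 of 12, and organic ion and related transporters 6 (75%) and 1 of 8. Vitamin and choline transporters had 3 mutant-higher sites and 1 wild-type-higher site. Each class rests on at most 25 sites, and the classes were described without a test.

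**Figure D3:**
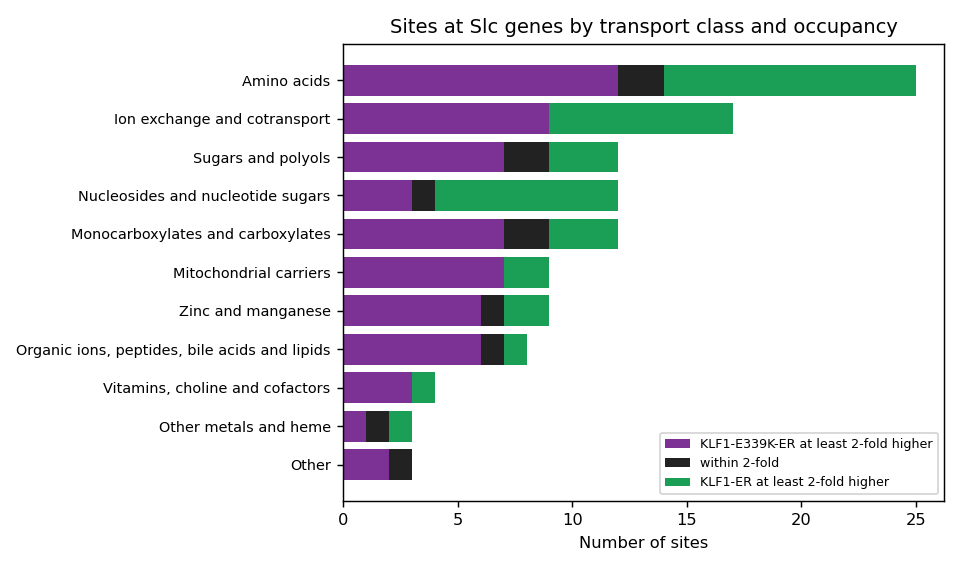
Number of sites (x axis) at Slc genes of each transport class, split by occupancy: KLF1-E339K-ER at least 2-fold higher, within 2-fold, and KLF1-ER at least 2-fold higher. The bar for amino acid transporters is the longest with 25 sites, and nucleoside and nucleotide sugar transporters are the class with 8 wild-type-higher sites of 12; phosphate transporters had no site and have no bar.

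A purine motif match within 50 bp of the midpoint was found in 27 of the 63 mutant-higher Slc sites (42.9%) and in 6 of the 40 wild-type-higher ones (15.0%). The shares over all sites of the same classes were 45.9 and 16.0%. The pyrimidine motif was found in 14 of the mutant-higher Slc sites (22.2%) and in 24 of the wild-type-higher ones (60.0%), beside 22.9 and 60.9% over all sites. Both strands were searched, and each share was close to that over all sites of its class. In flanks from 200 to 300 bp on both sides of the midpoint, the purine motif was found in 19.0% of the mutant-higher Slc sites and the pyrimidine motif in 10.0% of the wild-type-higher ones, beside 20.5 and 16.1% over all sites. The flanks together are longer than the central window, so flank and central shares are not taken over equal lengths of sequence. Neither motif was found in 29 of the mutant-higher sites (46.0%) and 13 of the wild-type-higher sites (32.5%), beside 45.0 and 33.5% over all sites, the Slc9a3r2 site with the highest KLF1-E339K-ER concentration and the Slc6a9 site with 6.24 for KLF1-ER among them.

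Single words differed in their split. GGGCGTGG was found in 10 of the 40 wild-type-higher Slc sites and 0 of the 63 mutant-higher ones, where the shares over all sites were 17.4 and 0.703%. GGGGGGGG was found in 10 of the mutant-higher Slc sites and 0 of the wild-type-higher ones, beside 15.0 and 0.44%, and GGGGGTGG in 9 and 0, beside 17.0 and 4.21%. GGGAGGGG was found in 9 of the mutant-higher sites (14.3%) and 4 of the wild-type-higher ones (10%), beside 18.6 and 7.48%. GGGTGGGG was found in 8 (12.7%) and 3 (7.5%), beside 13.6 and 17.3% over all sites. GGGAGTGG was found in 5 (7.94%) and 2 (5.0%), beside 3.51 and 5.03%. For both of these words the order of the classes over all sites was the other way. Matches in a run of G overlap, so a site can hold many: 20 at Slc25a18, 10 at Slc22a8 and at a site of Slc7a15, 7 at Slc25a1 and 6 at Slc39a10 and at Slc2a1, all in mutant-higher sites. Of the 11 sites within 2-fold, 1 held a purine match (9.09%) and 6 a pyrimidine match (54.5%), beside 28.9 and 39.2% of all sites within 2-fold. Matches outside the window, such as the further G-rich words in the printed Slc9b2 sequence, were not counted.

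**Figure D4:**
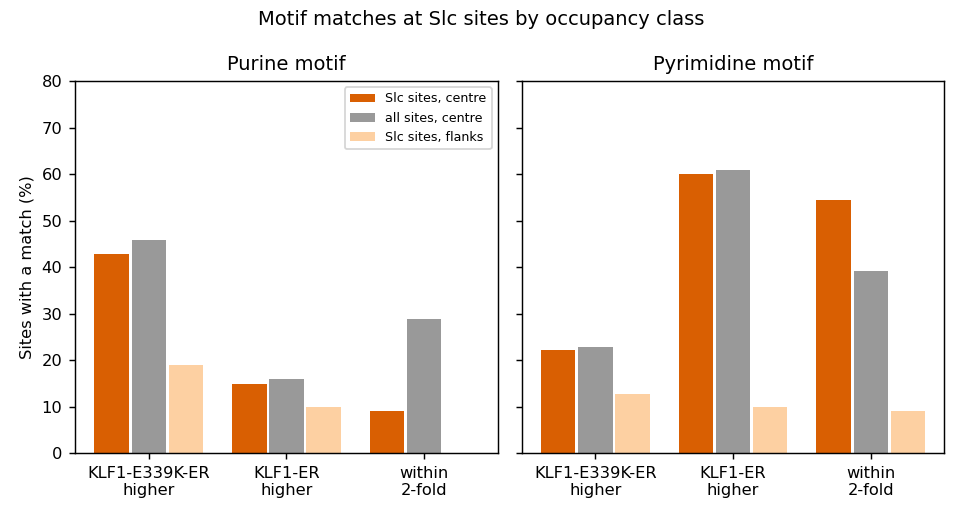
Share of sites (y axis, percent) with a purine motif match (left) or a pyrimidine motif match (right) within 50 bp of the midpoint for Slc sites and all sites, and in flanks 200 to 300 bp away for Slc sites, by occupancy class. The purine motif stands at 42.9% of mutant-higher and 15.0% of wild-type-higher Slc sites, the pyrimidine motif at 22.2 and 60.0%, with no bar where the share is 0. The flanks on both sides together are longer than the central window.

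Of the 194 Slc genes in the gene tables, 54 (27.8%) had a site of either kind within 10 kb of the TSS, where the share over all genes was 21.2%. The 95% Wilson interval of the Slc share ran from 22.0 to 34.5%, for the number of genes only, and the difference from all genes was not tested. Within 1 kb, 41 Slc genes (21.1%) had a site, beside 15.7% of all genes. By family-number class, 11 of the 27 genes of the amino acid families (40.7%) had a site within 10 kb. So did 7 of the 17 zinc and manganese genes (41.2%) and 4 of the 9 monocarboxylate genes (44.4%). Slc7a6os counts among the 27 by its symbol alone. Slc16a10, a transporter of aromatic amino acids, was among these monocarboxylate genes, and Slc6a3, the dopamine transporter, among the amino acid ones. The lowest shares were 4 of the 35 mitochondrial carriers (11.4%), 4 of the 23 nucleoside and nucleotide sugar transporters (17.4%) and 0 of the 3 phosphate transporters. In the other classes the share ran from 25 to 33.3%.

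Nascent RNA levels of the Slc genes spread widely. The level used is the authors' mean log2 CPM minus the log2 of the listed gene length in kb, which allows levels of different genes to be set side by side. It is a mean over the groups and says nothing of a difference between them, and in cell populations fewer cells and less RNA per cell cannot be told apart. The median level of the 194 Slc genes was 0.36 (quartiles -1.38 and 2.12), beside 0.82 (quartiles -0.87 and 2.26) for all 11364 genes. The lowest was -7.48 and the highest 5.43. Unscaled, the median log2 CPM was 5.14 for Slc genes and 5.27 for all genes, and the median length was 24.2 kb against 21.0 kb. The listed length was within 10% of the whole gene span, introns included, for 161 of the 180 Slc genes found in GENCODE release M1.

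The highest levels per kb belonged to Slc7a5 at 5.43, the 97.8 percentile of all genes, Slc20a1, a phosphate importer, at 5.38, Slc38a2 at 5.33, Slc25a5, the ubiquitous adenine nucleotide carrier, at 5.29 and Slc39a7, a zinc transporter of the endoplasmic reticulum, at 5.03. Next to them stood Slc16a1 at 4.94, Slc30a1, the plasma membrane zinc exporter, at 4.93, Slc25a44, a mitochondrial carrier, at 4.62, Slc25a4 at 4.51, Slc16a3 at 4.50 and Slc6a9 at 4.39, named after their values were seen. The lowest levels belonged to Slc44a1, a choline transporter, at -7.48, Slc12a8 at -6.92, Slc5a10 at -6.61, Slc16a12, a creatine transporter, at -5.68 and Slc18a1, a vesicular monoamine transporter, at -5.08. None of these 5 had a site.

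In several other classes the highest member was Slc35b2, a transporter of activated sulfate into the Golgi, at 4.17, Slc15a4, a lysosomal peptide and histidine transporter, at 2.65, Slc37a4, the glucose-6-phosphate transporter, at 2.65 and Slc31a1, the copper importer, at 0.77. Among sugar transporters the pseudogene Slc2a4rg-ps stood first at 3.42, ahead of Slc2a1 at 3.13, and among vitamin transporters Slc19a1, the reduced folate carrier, at 3.35. Class medians ran from -1.54 for ion exchangers and cotransporters to 2.15 for the 3 phosphate transporters, with 1.33 for amino acid transporters and 0.54 for mitochondrial carriers.

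The 54 Slc genes with a site within 10 kb had a median level of 1.39 and the 140 others of 0.11, and over all genes the medians were 1.29 with and 0.69 without a site. The 24 Slc genes with mutant-higher but no wild-type-higher site within 10 kb had a median of 1.63, the 19 with wild-type-higher but no mutant-higher site a median of -0.30, the 7 with both a median of 2.93 and the 4 with sites within 2-fold only a median of 3.29. Over all genes the medians of the same groups were 1.25, 1.26, 2.17 and 0.94. The ranges of these groups overlapped, from -4.33 to 5.33 for the first and from -3.94 to 3.80 for the second. Sites with high occupancy were not limited to genes with high levels. Slc9a3r2 stood at -2.61, Slc46a1 at -2.46, Slc6a3 at -3.67, Slc41a3 at -2.90 and Slc4a11 at -1.54, all below the lower quartile of all genes.

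**Figure D5:**
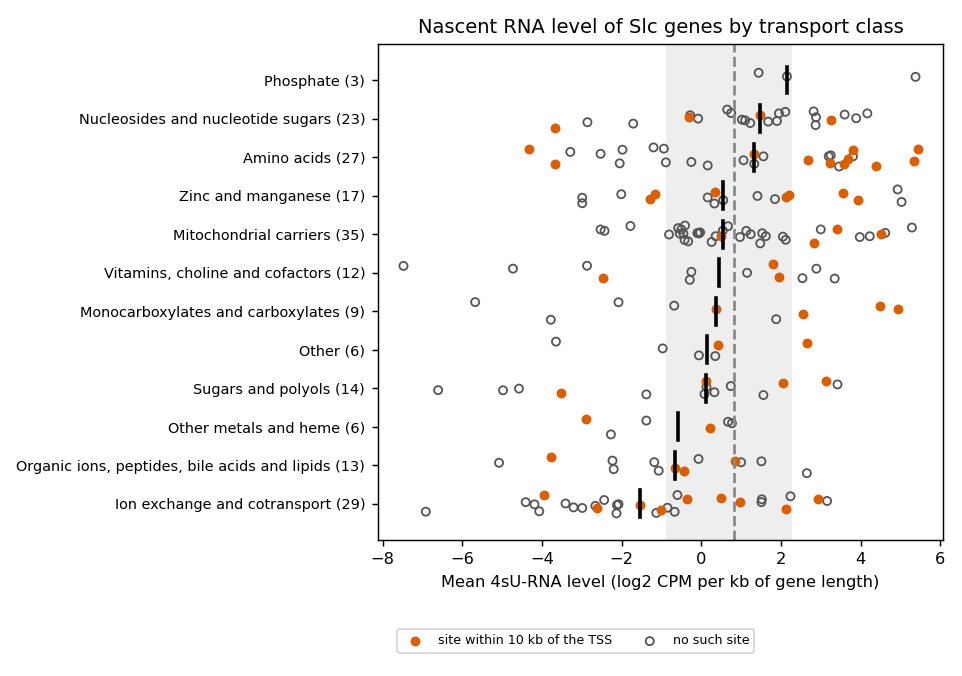
Mean nascent (4sU) RNA level (x axis, log2 CPM per kb of gene length) of the 194 Slc genes by transport class, with the number of genes in each; filled points have a site within 10 kb of the TSS, open points do not, and black bars are class medians. The dashed line and the grey band are the median, 0.82, and the quartiles, -0.87 and 2.26, of all genes; class medians run from -1.54 to 2.15.

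Symbols in the gene tables carry a limit of their own. For 4 Slc genes the tables gave different symbols to the same row: Slc24a6 or Slc8b1, Slc1a7 or Slc1a5, Slc39a1 or Slc39a1-ps, and Slc23a2 or Slc23a1. The listed length of the Slc1a7 row, 45199 bp, is close to the 45354 bp that Slc1a7 spans in GENCODE release M1 and not to the 16929 bp of Slc1a5. For Slc39a1 the listed 5421 bp compare with 5441 bp for Slc39a1 and 972 bp for Slc39a1-ps, and for Slc23a2 the listed 92613 bp equal its span, against 12641 bp for Slc23a1. The chromosome listed for the Slc1a7 row is that of Slc1a5, and the one listed for the Slc23a2 row is that of Slc23a1, so the rows mix the features of both genes. For Slc24a6 the listed 22833 bp compare with a span of 22857 bp, and Slc8b1 was not found in that release. The first symbol of each pair, from the KLF1-ER gene table that the rule names, was kept, and the lengths were compared afterwards. Sites were matched by symbol, and the levels of these 4 rows are uncertain as to the gene.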

How the data were processed

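The labels describe 4sU-RNA-seq and ChIP-seq libraries of the mouse K1 cell lines. The authors mapped the reads to mm9, with TopHat2 (version 2.0.10 in the submitters' processing notes) and TMAP for RNA and TMAP for ChIP. They called peaks with MACS2 and GEM, compared occupancy with DiffBind and compared expression with limma and voom. The counting tool, the gene annotation and the remaining versions are not given in the sources used here. The ChIP libraries were made from 3 pooled replicates, per the labels. The printed 4sU time and concentration are those of the labels, and the study's methods give a longer time and a larger unit of concentration.

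The 3 deposited tables hold 2 kinds of log2 values used here, both made by the authors: the mean log2 CPM of each gene over libraries that are not stated, and DiffBind's log2 concentration of each site for wild type and mutant. The tables also hold the authors' log2 fold changes, t statistics, p-values and FDR of K1-ER and K1-E339K-ER against K1 and of KLF1-ER against KLF1-E339K-ER. Those are outcomes of the study's own comparisons and were not used. No column gives a value per library, so no replicate error, depth or test could be had, and all results are descriptions, the main ones set beside the same measure over all genes or sites.

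The class of a site was set by a log2 difference of at least 1 between the mutant and wild type concentrations. Distance and closest TSS were taken from the site table. Motifs were searched on both strands of NCBIM37 within 50 bp of the midpoint, and in flanks 200 to 300 bp away on both sides. The flanks together are longer than the central window. Midpoints were placed in GENCODE release M1, where 105 of the 111 Slc sites with a transcript of that name had a TSS within 100 bp of the listed position. Transport classes follow the family number in the symbol, so Slc5a6, a vitamin transporter, counts with the sugar transporters. Likewise Slc6a3, the dopamine transporter, counts with the amino acid transporters and Slc16a10, a transporter of aromatic amino acids, with the monocarboxylate transporters. Python 3.11.15, numpy 2.4.6, pandas 2.3.3, scipy 1.17.1 and matplotlib 3.10.9 were used. The motif search and the site classes were tried on simulated data, with motifs planted in sequence of A and T only. The planted differences lay far beyond the cutoff, so this checks the code and not its behaviour on GC-rich sites. Wilson intervals are at the 95% level and cover the number of genes or sites only, which are not independent replicates.

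The named sites are the 8 with the highest mutant concentration among mutant-higher sites, the 8 with the highest wild type concentration among wild-type-higher sites and the 4 with the highest lower concentration among the rest. The named genes are those with at least 3 sites, the 5 highest and 5 lowest per kb and the highest of each transport class, of which 1 is not reported here. Sequences are shown for the first 3 sites of each kind. Further names were chosen after their values were seen. The members, classes and lists were chosen with earlier results of these data known. Alternatives were another minimum fold, filters on concentration and on log2 CPM, other distances and motif windows, no scaling by length, and the left-out genes added back.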

Additional observations from a re-analysis of the deposited data

How the results depend on the processing

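Over 23 alternatives, 20 values stayed within the 95% interval of the reported share or median, given by the number of sites or genes alone, and 3 did not. The share of Slc genes with a site was 21.1% within 1 kb of the TSS, beside 15.7% of all genes. The median level was 5.14 without scaling by length, beside 5.27 for all genes, and 1.11 per kb among genes with a mean log2 CPM of at least 3, beside 1.34. These 3 alternatives changed the quantity itself, by a narrower window, another scale or a filter on the level. Their shift was therefore largely fixed in advance. The share of mutant-higher Slc sites ran from 46.3% (all sites 50%), without sites at a lowest listed concentration, to 56.8% (60.4%), within 10 kb. That of wild-type-higher sites ran from 28.9% (23.3%), at 4-fold, to 40.8% (31.0%), within 1 kb. With 100 bp either side searched, the purine motif share was 54.0% (59.8%) and the pyrimidine share 72.5% (72.7%). At 4-fold these shares were 46.4% (46.4%) and 54.5% (63.0%). No paired analysis was possible because the results come from no test and the tables hold only means, and for the same reason no replicate could be left out. The wild type concentrations rest on libraries not analysed here.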

Other observations

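The 5 erythroid Slc genes left out above had 12 sites, of which 6 were mutant-higher, 4 wild-type-higher and 2 within 2-fold. Slc4a1, the anion exchanger of the red cell membrane, had 5, of which 4 were mutant-higher and 1 wild-type-higher, and a level of 1.37 log2 CPM per kb. Slc25a38, the mitochondrial glycine carrier, had 3 wild-type-higher sites and 1 within 2-fold, with a level of 3.58. Slc25a37, mitoferrin, had 2 mutant-higher sites and a level of 2.63. Slc11a2, the iron importer of endosomes, had 1 site within 2-fold and a level of 2.71. Slc40a1, the iron exporter ferroportin, had no site and a level of -1.86. With these genes added back, 54.8% of the Slc sites were mutant-higher and 34.9% wild-type-higher, beside 61.5 and 28.7% of all sites.

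ABC transporters, the other large family of membrane transporters, had 32 genes in the gene tables. Of these, 7 (21.9%, 95% Wilson interval 11.0 to 38.8%) had a site within 10 kb, beside 21.2% of all genes. Their 12 sites were 6 mutant-higher, 5 wild-type-higher and 1 within 2-fold. The median level of the ABC genes was -0.10 log2 CPM per kb, beside 0.82 for all genes.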
